A study of Mus musculus with 16 samples.

Results

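The 1431 regions described here are the long stretches of H3K27ac that every spermatocyte library had in common. H3K27ac, histone H3 acetylated at lysine 27, was measured by chromatin immunoprecipitation with sequencing (ChIP-seq) in pachytene spermatocytes, male germ cells in meiotic prophase. Each of 4 libraries has its own list of peaks, stretches of the genome with more sequenced fragments (tags) than background. Peaks on the 19 autosomes that overlapped by at least 1 bp were merged across the lists, which gave 33417 merged regions. Of these, 9763 held a peak in all 4 lists, and 1431 of the 9763 were at least 4000 bp long. The members were thus selected on the peak calls themselves, so their length and their presence in every library are how they were chosen and not a result.

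The wild-type libraries came from pachytene spermatocytes of C57BL/6J males of 8 to 12 weeks, the mutant libraries from the same strain and age with the genotype A-mybrepro9/repro9, homozygous for a mutant allele of A-myb (gene symbol Mybl1), a transcription factor of male germ cells. Both groups have 2 libraries, each from 1 mouse, with cells isolated by STA-PUT sedimentation and native chromatin cut with micrococcal nuclease. The antibody was ab4729 from Abcam, of a single lot. The 4 input libraries were not analysed here. The series also holds RNA-seq of J1 embryonic stem (ES) cells, an established mouse line of 129S4/SvJae background (passage 36, day 3, feeder-free 2i and LIF medium). All 8 ES libraries carry a transgene for dCas9-VPR, a dead Cas9 fused to activation domains, a guide RNA aimed at the RLTR10B2 long terminal repeat, and DsRed. The 4 groups of 2 libraries received neither treatment (control), doxycycline at 1 µg/ml (Dox), A-MYB expression (A-MYB), or both (Dox+A-MYB). ES cells are not germ cells. The labels describe RNA from single wells and do not say whether the 2 wells of a group were independent cultures, so p-values measure only the spread between these libraries, which may be technical.

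As background, acetylation of H3K27 marks active promoters and enhancers. Most peaks of the mark are short, and long ones are usually studied as clustered enhancers or as broad domains over the starts of strongly transcribed genes. In male meiosis A-MYB is known for switching on genes and piRNA loci of the pachytene stage, and the mark also appears on long terminal repeats of endogenous retroviruses, which act as enhancers there. No repeat annotation and no sequence beyond promoters was used here, so how far these regions lie on repeats was not tested.

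Few of the regions hold a gene start, and the starts they do hold are mostly copies of one another. The 300 bases around a start (250 before, 50 after), from RefSeq on GRCm38.p6, the assembly that mm10 also names, were compared by alignment. These promoters are shown because they make that likeness visible in places far apart in the genome. Gm36456 and Gm12790 lie in regions on chromosomes 1 and 4, and Gm36456 has more copies on other chromosomes than any other start in the set. Gm21149 and Speer4c lie on chromosome 5 and have the most copies on their own chromosome after the start of Gm17124. The pairs were chosen after their values were seen. Capitals mark the bases that differ from the partner in the alignment or that the partner's window lacks.

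Gm36456, chr1:188608480-188608779, minus strand: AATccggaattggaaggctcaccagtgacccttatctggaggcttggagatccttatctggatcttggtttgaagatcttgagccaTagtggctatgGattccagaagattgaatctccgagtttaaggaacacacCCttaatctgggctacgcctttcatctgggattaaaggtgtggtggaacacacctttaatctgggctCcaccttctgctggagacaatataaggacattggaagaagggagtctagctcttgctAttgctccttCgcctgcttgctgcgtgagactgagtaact
Gm12790, chr4:101975056-101975355, minus strand: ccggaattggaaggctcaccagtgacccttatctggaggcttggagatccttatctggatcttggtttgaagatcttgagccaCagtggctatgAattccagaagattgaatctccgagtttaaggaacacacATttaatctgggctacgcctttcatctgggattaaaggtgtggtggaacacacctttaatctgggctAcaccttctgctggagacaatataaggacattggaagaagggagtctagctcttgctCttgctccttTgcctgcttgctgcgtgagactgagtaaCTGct
Gm21149, chr5:15476487-15476786, minus strand: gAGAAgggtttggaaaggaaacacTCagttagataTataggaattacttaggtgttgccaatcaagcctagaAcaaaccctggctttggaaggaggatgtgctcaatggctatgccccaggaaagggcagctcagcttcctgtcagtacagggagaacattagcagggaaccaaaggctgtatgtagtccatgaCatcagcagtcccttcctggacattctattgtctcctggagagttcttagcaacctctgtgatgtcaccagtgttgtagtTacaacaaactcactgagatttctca
Speer4c, chr5:15714222-15714521, minus strand: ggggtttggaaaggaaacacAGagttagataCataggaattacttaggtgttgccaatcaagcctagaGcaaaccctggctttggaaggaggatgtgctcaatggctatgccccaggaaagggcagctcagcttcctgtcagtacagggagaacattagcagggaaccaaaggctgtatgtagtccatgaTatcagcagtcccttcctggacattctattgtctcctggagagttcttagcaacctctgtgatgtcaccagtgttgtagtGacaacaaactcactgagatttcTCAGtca

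The Gm36456 and Gm12790 promoters had 290 identical bases over 303 aligned positions (95.7%), although they lie on different chromosomes. The Gm21149 and Speer4c promoters had 290 identical bases over 304 (95.4%). Speer4c belongs to the Speer genes, a multicopy family named for glutamate-rich proteins of spermatogenesis.

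The lengths ran from 4001 to 8838 bp, with a median of 5467 bp. They did not thin out evenly: 286 regions were 4500 to 4999 bp long, 86 were 6000 to 6499 bp, and 219 (15.3%) were 6500 to 6999 bp. Only 6 regions reached 8000 bp. The longest, chr19:9828546-9837383, overlaps no annotated gene and held 670 and 556 tags in the wild-type libraries and 491 and 274 in the mutant libraries. The third longest, chr12:41363363-41371674 (8312 bp), lies in Immp2l, which encodes a peptidase subunit of the inner mitochondrial membrane, with 411, 500, 257 and 195 tags in wild-type 1 and 2 and mutant 1 and 2. The fifth, chr14:83866027-83874184, ran the other way, with 101, 197, 200 and 508 tags. Its length rests on mutant 2, where peaks cover 7940 bp against 1322 bp in wild-type 1. Among the 8 longest, 4 overlap an annotated gene: Immp2l, Gm7133, Arhgef28 and Gm40378.

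**Figure D1:**
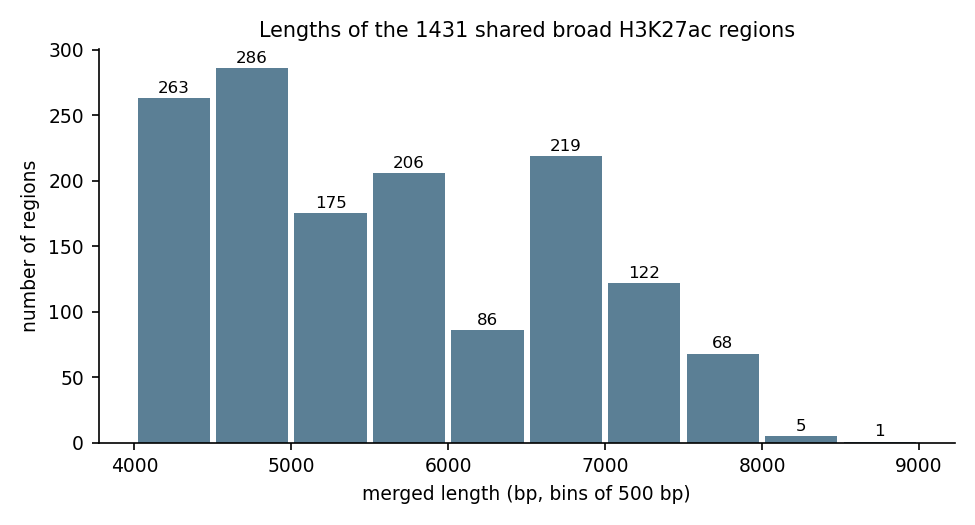
Number of shared broad regions (y axis) by merged length in bins of 500 bp (x axis); the number above each bar is its count. The bars fall from 286 regions at 4500 to 4999 bp to 86 at 6000 to 6499 bp and stand at 219 in the next bin.

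The limit of 4000 bp cuts through a continuous range. Just inside it lie chr1:89199464-89203464 (4001 bp; 279, 226, 266 and 222 tags), chr6:90032273-90036275 (4003 bp; 365, 279, 251 and 231 tags), in the vomeronasal receptor gene Vmn1r48, and chr9:114970710-114974713 (4004 bp; 310, 266, 284 and 251 tags). Just outside lie regions of 3998 bp (192, 76, 244 and 240 tags), 3994 bp (279, 246, 255 and 258 tags) and 3992 bp (293, 135, 116 and 85 tags). Tags ran from 222 to 365 in the 3 regions inside and from 76 to 293 in the 3 outside.

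Long regions were not always long peaks. In 843 of the 1431 (58.9%), every list had exactly 1 peak in the region; the remainder were joined from 2 or 3 peaks in at least 1 list. A single peak of at least 4000 bp was present in all 4 lists in 186 regions (13%) and in none in 257 (18%). Peaks covered a median of 82.1% and 83.3% of the merged length in the wild-type libraries, against 79.6% and 72.8% in mutants 1 and 2. The covered stretches of the wild-type libraries shared a median of 82.4% of their bases, those of the mutant libraries 72.1%, and pairs of libraries of different genotype 68.9% to 69.4%. The highest summits of the wild-type libraries were a median of 91 bp apart, and in every other pair of libraries 368 to 456 bp. In 42.8% to 45.8% of the regions the highest summit lay closer to an end of the region than to its middle.

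Enrichment within the regions was modest and tag density was nearly constant. The highest fold enrichment over background of a region, the authors' value per peak, had medians of 3.86 and 3.79 in the wild-type lists and 3.37 and 3.40 in the mutant lists. In the 8332 shared regions under 4000 bp these medians were 5.68, 5.61, 4.98 and 5.04. Tags per kb of covered length had medians of 79.2, 67.4, 67.3 and 65.4, with an interquartile range in wild-type 1 of 73.8 to 84.3. Across the members, log2 tags and log2 covered length correlated at r = 0.919 to 0.949 (Pearson, 1431 regions of 1 library each time, given as a description; both come from the same peaks). Regions with more covered length thus had more tags in every library, at much the same density.

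**Figure D2:**
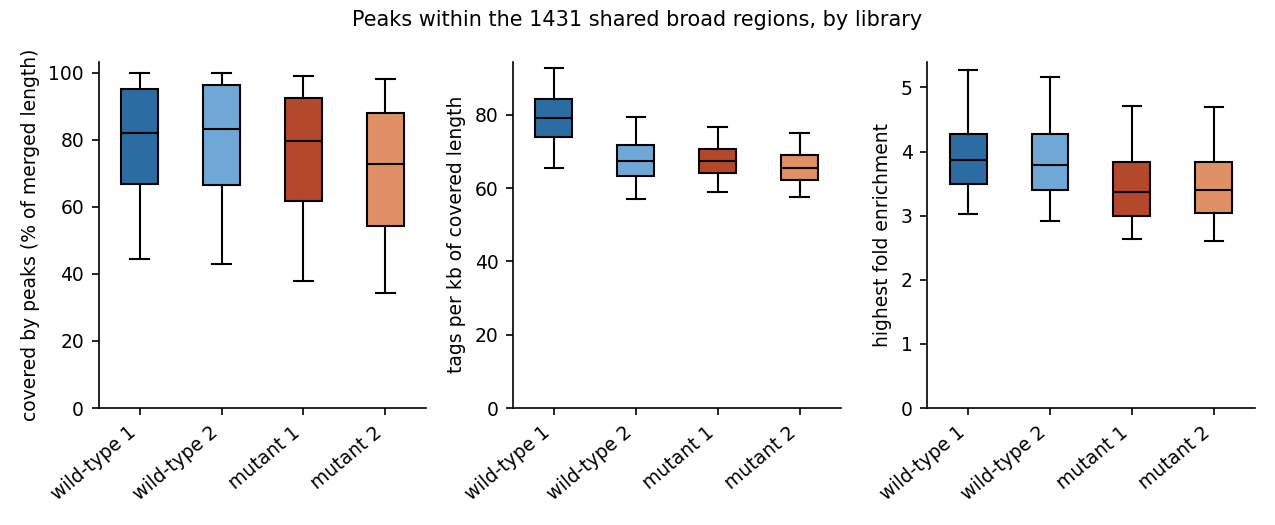
Share of the merged length covered by peaks, tags per kb of covered length and highest fold enrichment (y axes) in the 4 libraries (x axis) for the 1431 regions; boxes span the quartiles, lines are medians and whiskers reach the 5th and 95th percentiles. Wild-type 1 has the highest tag density (median 79.2) and mutant 2 the smallest covered share (median 72.8%).

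The libraries differed in the number of tags in peaks. Tags in autosomal peaks numbered 2782616 and 2147077 in the wild-type libraries and 1960618 and 1768013 in the mutant libraries, in 24515, 20862, 20034 and 19023 peaks. Total sequencing depth is unknown from these lists. Of the autosomal peak tags, the broad regions held 18.2% (18.2% to 18.3%, exact Clopper-Pearson 95% interval, counting error only) and 20.3% (20.3% to 20.4%) in the wild-type and 21.3% (21.2% to 21.3%) and 21.3% (21.3% to 21.4%) in the mutant libraries. The shares averaged 19.3% ± 1.47 in wild-type and 21.3% ± 0.0394 in mutant cells (SD, n = 2), a difference of 2.02 percentage points. The groups do not overlap, but 2 libraries against 2 cannot give an exact permutation p below 0.333, the value obtained (two-sided). Without wild-type replicate 1, the library with the most tags in peaks, the difference was 0.988 percentage points. The share depends on its denominator, which counts every autosomal peak, and the wild-type lists hold more peaks. Tags in all shared regions numbered 1463863 and 1254795 in wild-type and 1213842 and 1129012 in mutant libraries. Of these, the broad regions held 507705 and 436279 against 417223 and 377221. On that denominator the share was lower in both mutant libraries than in either wild-type library, a difference that was not tested.

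Length was also found outside the shared set, more often on the wild-type side. Another 541 merged regions of at least 4000 bp lacked a peak in at least 1 list. Of these, 77 had peaks in both wild-type lists and neither mutant list, and 12 in both mutant lists and neither wild-type list. The wild-type lists hold more peaks, and the part of this in these counts was not tested.

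The densest regions were of another kind. chr1:24611161-24616657, over the pseudogenes Gm10222 and Gm10925, held 3368 and 3221 tags in wild-type and 2922 and 2818 in mutant cells, or 624, 586, 542 and 522 tags per kb of covered length. The next, chr17:39842552-39849256, holds Rn18s-rs5, a sequence related to 18S ribosomal RNA, and AY036118, with 2544, 2277, 1778 and 1841 tags. chr9:2999923-3005204, which overlaps no annotated gene, held 1199, 1165, 1367 and 1343 tags. Before scaling, both mutant libraries had more tags than either wild-type library in the chromosome 9 region and fewer in both regions before it; after scaling the log2 changes were 0.39, -0.01 and -0.22 in the order chromosome 9, 1 and 17, and none passed the test described below. Fold enrichment over the first was 2.67 in wild-type 1, below the median of the members in spite of its tags. The others of the 8 densest include Pisd-ps2 (1010, 914, 768 and 730 tags), a transcribed pseudogene, Eppk1 (897, 665, 431 and 422 tags), which encodes epiplakin, a cytoskeletal linker, and Arhgap24 (546, 463, 420 and 394 tags). How reads of repeated sequence were placed among copies was not stated.

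The regions were spread over all autosomes. They numbered from 0.442 per Mb on chromosome 12 to 0.699 per Mb on chromosome 13, over the span between the first and last RefSeq gene. The part of a chromosome's shared regions that were broad ran from 11% on chromosome 3 to 21.5% on chromosome 11. Neighbouring members were a median of 1099.9 kb apart, 117 of 1412 gaps were under 100 kb, and the fullest 1-Mb windows, on chromosome 7 (89 to 90 Mb) and chromosome 13 (87 to 88 Mb), held 5 each.

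Gene starts were scarce in the regions. On the 18 autosomes with RefSeq starts in the table used (chromosome 18 is not among them), 30 of 1378 regions (2.18%) held an annotated start. Of 430579 windows of 5467 bp tiled over the same chromosomes, 5.87% held one. Shared regions under 4000 bp held one in 0.598% of cases, against 2.06% of windows of their median length, so both classes held fewer starts than windows of like length. Regions of at least 4000 bp in fewer than 4 lists held one in 8.43% of cases, the highest of these shares. Within 1 kb of a start lay 3.63% of the broad regions and 7.85% of the windows. The median distance to the nearest start was 48.5 kb, against 42.1 kb for the windows and 66.2 kb for shared regions under 4000 bp. Gene bodies overlapped 518 of the 1431 (36.2%), against 54.8% of the windows.

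**Figure D3:**
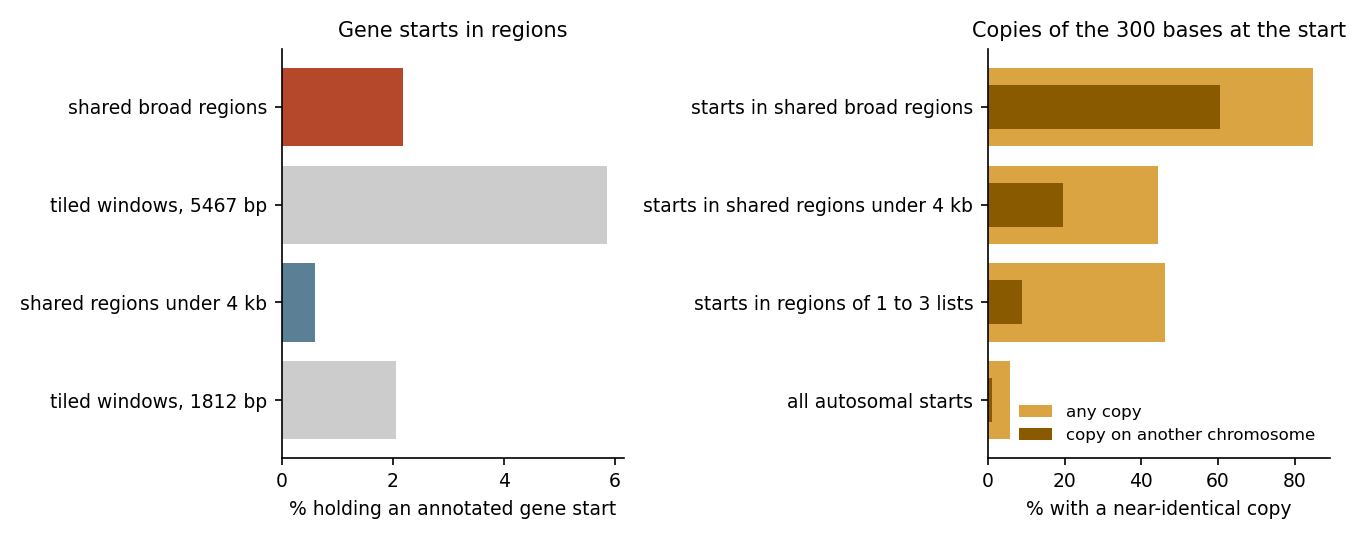
Left, percent of regions or tiled windows (rows) that hold an annotated gene start; right, percent of gene starts (rows) whose 300 bases have a near-identical copy anywhere (light) or on another chromosome (dark). Broad regions hold a start in 2.18% of cases and windows of the same median length in 5.87%, and 84.8% of the starts in broad regions have a copy against 5.71% of all autosomal starts.

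Starts in broad regions are rare throughout: they are 33 of the 31396 autosomal starts (0.105%). A short list of genes is thus likely to have none, and the counts below are given as a description. Of 12 pachytene markers, 11 have a start in the table, and 0 of these lie in a broad region. The start of Piwil1, an Argonaute protein that binds piRNAs, lay in a peak of wild-type 1, and no other pachytene marker start lay in a peak of any list. Markers of spermatids, spermatogonia, Sertoli cells, Leydig cells and peritubular, vascular or immune cells had 0 starts in any list (5, 3, 3, 4 and 2 with a start in the table). Starts of any kind were rare in the merged regions too, with 1.75% of all autosomal starts in one. With a peak at the start of Piwil1 alone, the labelled cell type could not be checked from the markers. Why the other marker starts, those of pachytene genes included, had no peak was not tested. Mybl1 itself has no peak at its start in any list, so the mutation was not checked from these files.

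Of 268 genes in 15 lists of germ cell, testis and housekeeping functions, 201 have a start in the table. Of these, 0 have a start in a broad region and 9 (4.48%) in any merged region, against 1.75% of all autosomal starts. The 4.48% counts genes with any start in a region and the 1.75% counts single starts, so the shares are not strictly alike. From germ cell lists came Piwil1, Tex12, a component of the synaptonemal complex, and Smc1b, a cohesin subunit of meiosis. So did Tssk3, a kinase of spermatids, and Gapdhs, a glycolytic enzyme of sperm. The others were Hba-a1 from the vascular and immune list, H2ac18 and H3f3b from the histone list, and Psmd1 from the proteasome list. The lists of meiotic recombination (15 with a start), pachytene metabolism and chaperones (16) and cell cycle (16) had 0. Gene bodies in a broad region came from 2 list members. Mnd1, a partner of the recombinases in meiotic strand invasion, holds chr3:84145141-84149744 with 269 and 239 tags in wild-type and 249 and 250 in mutant cells. After scaling to library size these were 235 and 242 against 259 and 277, so both mutants lay above both wild-type libraries, and the difference did not pass the test used below (log2 0.17, SE 0.17, edgeR adjusted p = 0.708). Spag16, a protein of the sperm axoneme, holds chr1:70237025-70241727 with 359 and 329 tags in wild-type and 224 and 234 in mutant cells. The difference over Spag16 did not pass either (log2 -0.39, SE 0.18, edgeR adjusted p = 0.416).

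In all, 519 annotated genes overlap a broad region with some part of their body, 367 of them protein coding and 100 long noncoding. Most have 1 region. Igk, the immunoglobulin kappa locus, Lsamp, a neuronal adhesion protein, Kcnn2, a calcium-activated potassium channel, and Xpnpep1, an aminopeptidase, have 3 each. The first of these span 3171.1 and 2197.4 kb, and Xpnpep1 107.4 kb.

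The 30 regions with a start hold 33 starts of 31 genes, 18 protein coding and 13 long noncoding, and 25 of the 31 carry only a provisional Gm or LOC symbol. A start was said to have a near-identical copy when its 300 bases aligned to those of another start with at least 90% identity over at least 200 bases, on another chromosome or more than 10 kb away. That held for 28 of the 33 starts (84.8%), and for 20 (60.6%) with a copy on another chromosome. Among the 61 starts in shared regions under 4000 bp, 44.3% had a copy, and 19.7% had one on another chromosome. Among the 454 starts in regions of 1 to 3 lists the shares were 46% and 8.81%. Among all 31396 autosomal starts they were 5.71% and 1.07%.

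Of 82 autosomal starts that copy a member's start but lie outside the members, 24 (29.3%) fall in some merged region. The likeness therefore runs through starts with the mark in fewer lists as well. Of all autosomal starts 1.75% fall in one, but starts with any copy are a closer baseline. Of 1793 such starts, 28 lie in members, 27 in shared regions under 4000 bp and 209 in regions of 1 to 3 lists. Which copy carried the mark is uncertain for all of these, since how reads with several matches were placed was not stated.

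The copies form a few families. Gm36456 (17 copies, all on other chromosomes), LOC105246046 (16) and Gm12790 (16) resemble each other on chromosomes 1, 15 and 4. Gm40378 on chromosome 6 and Gm41844 on chromosome 19 had 98.7% identical bases, the closest pair of those aligned. On chromosome 5, Gm21149, Speer4d, Speer4c, Gm7347 and Gm10220 have 21 or 22 copies each on that chromosome, and Gm6370, 4930449I24Rik and Gm3415 form a further cluster. Gm17124 on chromosome 14 has 25 copies there. Eps8l1, which encodes a relative of the actin regulator EPS8, and Gramd1c, which encodes a GRAM-domain protein of lipid transport, are protein-coding genes outside these families, with 1 and 2 copies.

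The composition of these promoters stood beside that of all 31396 autosomal ones as follows. Their GC content had a median of 49.3% (42% to 56.7%) against 53%, and they held a median of 5 CG dinucleotides against 7. Motifs were searched on both strands of the 300 bases. CCAAT, the site of NF-Y, occurred in 69.7% of the 33 promoters and in 37.3% of all autosomal promoters. GGGCGG, the GC box of the SP and KLF factors, occurred in 12.1% and 36%. AACNG, the core of MYB sites, occurred in 72.7% and 80.1%, and AACGG, which it contains, in 18.2% and 17.2%. TGACGTCA, the cAMP response element bound by CREM in germ cells, occurred in 3.03% and 1.83%, and TATAAA in 3.03% and 13.6%. Since 19 of the 33 are near-identical copies of another of the 33, these shares count related sequences more than once.

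The comparison of wild-type and mutant cells asks whether tags differed over regions that were called in both. Regions without a peak in a mutant list were left out by the rule. Complete loss of a peak in the mutant therefore cannot be seen in this set. Tags summed over each region's peaks were tested with edgeR over all 9763 shared regions. No region passed at an adjusted p under 0.05, so 0 of the 1431 were called with more tags and 0 with fewer (0% and 0% of all 9763). The smallest adjusted p was 0.179. At an unadjusted p under 0.05 stood 205 members (14.3%), 73 with more and 132 with fewer tags in the mutant, against 13.4% of all shared regions. The median log2 change was -0.04 in the members and 0.01 in all shared regions, and the median size of the change 0.24 in both. With DESeq2, 26 of the 7870 regions it tested were called with more tags (0.33%) and 31 with fewer (0.394%). Of these calls, 9 and 17 were members. Members thus made up a larger part of the calls than of the regions tested, and the reason was not tested.

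Groups that do not overlap were common. After scaling, both mutant libraries lay above both wild-type libraries in 265 members (18.5%, against 24.7% of all shared regions) and below them in 357 (24.9%, against 23.8%). The balance depends on the scaling. With tags divided by the total of all autosomal peaks, 469 members (32.8%, against 42.1% of all shared regions) lay above. Below lay 167 (11.7%, against 9.76%), and the medians were 0.15 in the members and 0.21 in all shared regions. Relative to all shared regions, the members' median was lower under both scalings.

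The region with the smallest p, chr18:42476128-42481055, held 372 and 299 tags in wild-type and 83 and 83 in mutant cells (log2 -1.81, SE 0.16, edgeR adjusted p = 0.179, DESeq2 adjusted p = 0.00143). Both mutant libraries were far below both wild-type libraries, and peaks covered 4705 and 4740 bp against 1334 and 1264 bp. Tags per kb of covered length were 79.1 and 63.1 against 62.2 and 65.7, which overlap. chr9:6698339-6702856 held 297 and 248 against 92 and 76 tags (log2 -1.50, SE 0.16, DESeq2 adjusted p = 0.00879). chr5:43344845-43349588 held 365 and 321 against 130 and 115 tags (log2 -1.29, SE 0.17, DESeq2 adjusted p = 0.0298).

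In the other direction, chr2:70072559-70077550 in Myo3b, which encodes a class III myosin, held 102 and 94 tags in wild-type and 266 and 334 in mutant cells (log2 1.81, SE 0.21, DESeq2 adjusted p = 0.00167). chr12:45948981-45954494, outside any annotated gene, held 56 and 57 against 195 and 145 tags (log2 1.77, SE 0.22, DESeq2 adjusted p = 0.00174). chr17:8715534-8720063, in the phosphodiesterase gene Pde10a, held 143 and 127 against 281 and 269 tags (log2 1.22, SE 0.16, DESeq2 adjusted p = 0.0494). In each of these 6 regions the genotypes did not overlap, and the edgeR adjusted p was 0.179.

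Changes in tags went with changes in how much of a region was called. Of the 1431 regions, 1290 (90.1%) had the same sign for both, and across regions the log2 changes correlated at r = 0.965 (a description; both come from the same peaks). The 17 regions that DESeq2 called lower had a median log2 change in covered length of -1.54 and in tags per kb of covered length of -0.15, close to the median of all members for density (-0.13). The 9 called higher had 1.20 and 0.05. Tags outside called peaks are not in the lists, so a region with fewer tags may have kept a signal below the caller's threshold.

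**Figure D4:**
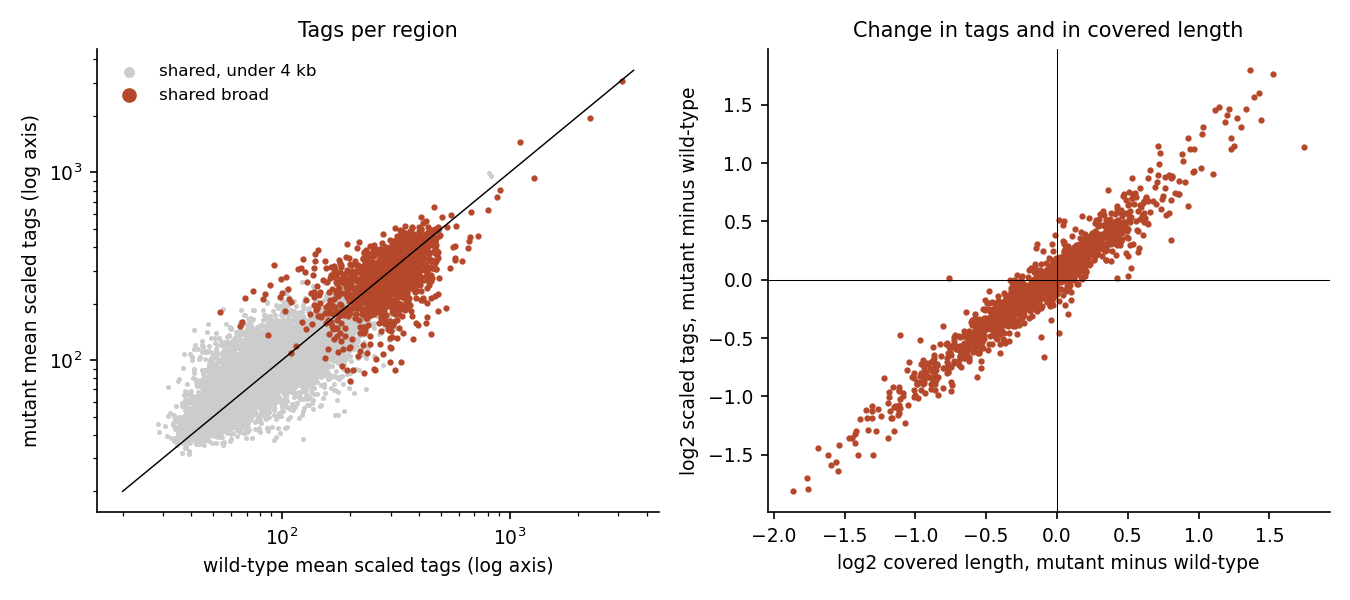
Left, mean scaled tags per region in mutant (y axis, log) against wild-type (x axis, log) for broad (red) and shorter shared regions (grey) with the line of equality; right, log2 change in scaled tags (y axis) against log2 change in covered length (x axis) for the 1431 broad regions. Most points on the right lie in the quadrants where both have the same sign (90.1%).

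Among the 30 regions with a gene start, both mutant libraries lay below both wild-type libraries in 10, above in 3, and the genotypes overlapped in 17. Of all shared regions, 23.8% lay below and 24.7% above in this way. With tags divided by the total of all autosomal peaks, 8 of the 30 lay below and 8 above, against 9.76% and 42.1% of all shared regions. The counts of the 30 and the shares over all shared regions both moved with the scaling. The region at the start of Gm42031 held 633 and 496 tags in wild-type and 145 and 207 in mutant cells (log2 -1.47, SE 0.26, edgeR adjusted p = 0.193, DESeq2 adjusted p = 0.0128). The region at the start of Gramd1c held 379 and 415 against 87 and 154 tags (log2 -1.53, SE 0.35, edgeR adjusted p = 0.222, DESeq2 adjusted p = 0.0238). On chromosome 5 the regions of Gm6370 (434 and 364 against 143 and 178 tags) and 4930449I24Rik (288 and 358 against 128 and 162) lay lower in both mutants, while in that of the nearby Gm3415 (391 and 306 against 272 and 282) the scaled values overlapped. Of the promoter pairs printed above, Gm36456 (347 and 427 against 321 and 225 tags) and Gm12790 (314 and 353 against 290 and 253) overlapped between genotypes after scaling, as did Gm21149, and the scaled tags of Speer4c were higher in both mutants (567 and 585 against 481 and 527).

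**Figure D5:**
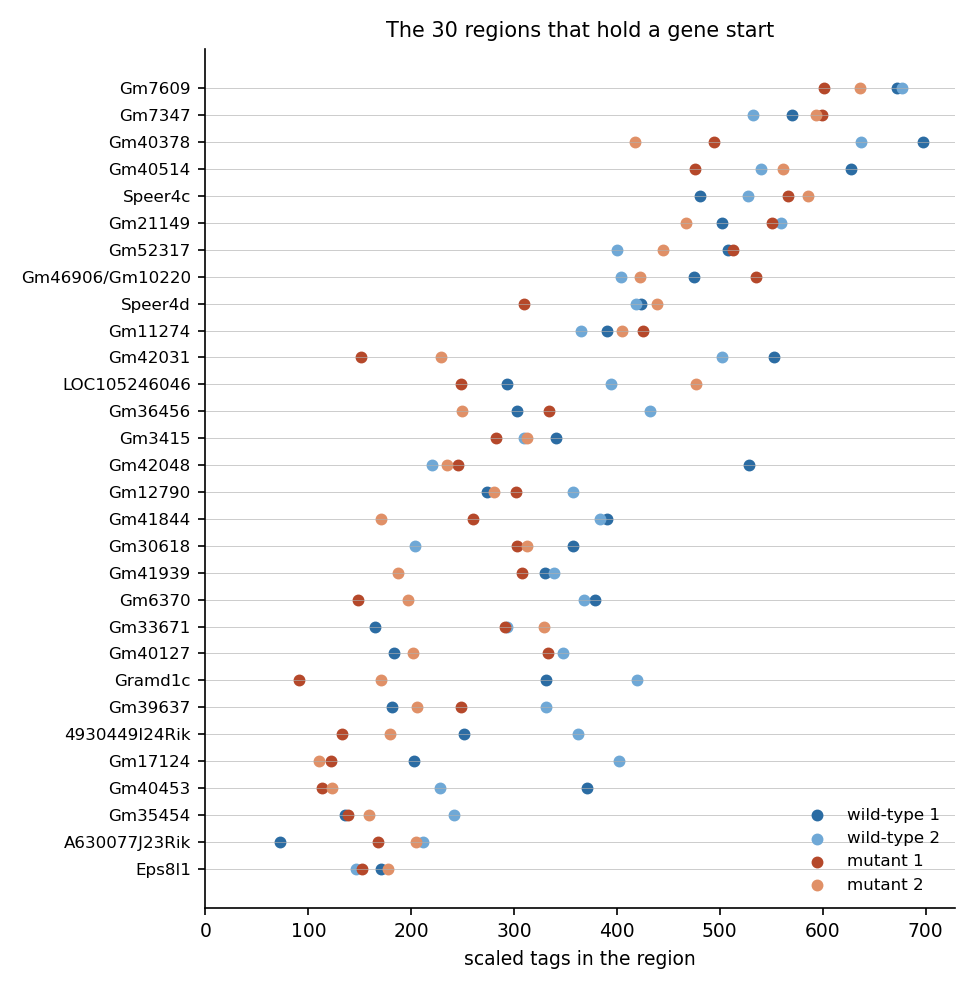
Tags scaled to the mean effective library size (x axis) in the 30 broad regions that hold a gene start (rows, named by the genes that start there), one point per library. Both mutant libraries lie below both wild-type libraries in 10 regions, among them Gm42031, Gramd1c and Gm6370, and above in 3. Over all shared regions the shares below and above were 23.8% and 24.7%. Scaled to all autosomal peak tags, the 30 regions split 8 below and 8 above, and the shares over all shared regions were 9.76% and 42.1%.

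The ES cell data show whether the genes that start in these regions respond to A-MYB in another cell type. Mybl1 counts were 242 and 178 in control, 363 and 296 in Dox, 603 and 534 in A-MYB and 682 and 561 in Dox+A-MYB libraries, higher with A-MYB in both contrasts (log2 1.38 and 0.79, edgeR adjusted p = 1.24e-07 and 2.31e-05). Of the 31 genes with a start in a broad region, 9 are in the count tables, 4 of these with 0 counts in all 8 libraries, and 3 passed the filter on low counts, which a gene can pass through 1 high group.

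Without Dox, 0 of the 3 were higher and 0 lower with A-MYB (19.5% and 15.2% of the 14664 genes tested). With Dox, 2 were higher and 0 lower (26.8% and 28.4% of all genes). Both passed the filter through the Dox+A-MYB libraries alone, the group where they are high, so their calls are largely fixed by the filter and are given as a description. Eps8l1 had 7 and 3 counts in control, 2 and 3 in Dox, 2 and 7 in A-MYB and 36 and 21 in Dox+A-MYB libraries. Only the libraries with both treatments stood above the rest, and with Dox the gene was higher with A-MYB (log2 3.31, SE 0.79, edgeR adjusted p = 0.00101). Gm10220 had 0 counts in all control and A-MYB libraries, 4 and 6 in Dox and 47 and 49 in Dox+A-MYB libraries (log2 3.1, SE 0.66, edgeR adjusted p = 0.000344). The start of Gm10220 has near-identical copies on chromosome 5, and whether reads of its transcripts can be told from those of related genes was not tested. Gramd1c had 8, 7, 9, 15, 12, 10, 7 and 5 counts over the libraries in the order control, Dox, A-MYB, Dox+A-MYB and passed in neither contrast (adjusted p = 0.642 and 0.192). These counts are low beside library totals of 26995317 to 33771487, and in bulk cultures more cells with a transcript and more transcript per cell cannot be told apart.

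A wider assignment takes in any gene whose body overlaps a broad region, which was chosen after the data were seen. Of 519 such genes 252 were tested. Without Dox, 59 (23.4%) were higher and 12 (4.76%) lower with A-MYB; with Dox, 83 (32.9%) were higher and 50 (19.8%) lower. Over all 14664 genes tested these shares were 19.5% and 15.2% without Dox and 26.8% and 28.4% with Dox. With counts scaled to library totals alone, 107 were higher and 26 lower with Dox, and 5804 and 2367 of all genes. Without control replicate 1 the number higher without Dox was 33 (1744 of all genes), and without A-MYB replicate 1 it was 31 (1718 of all genes). Their median level in control cells was 8.57 CPM (counts scaled to library size) against 20.4 for all tested genes, a scale that is not per length. Overlap with a gene body does not tie a region to that gene.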

How the data were processed

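H3K27ac peaks of 4 spermatocyte libraries and RNA-seq counts of 8 ES cell libraries were used. Per the submitters' processing notes, the tools were MACS 1.4.2, Bowtie2 2.3.3.1, HISAT2 2.1.0, bcl2fastq 2.20.0 and HTSeq, with build mm10. The control library of each peak call and the treatment of reads with several matches are not given in the sources used here. The deposited peak lists give, per the file headers, tags as counts, a fold enrichment as a ratio, and a score. The score column is headed as a -log10 p-value but starts at 50, the scale of log10 p times minus 10 that MACS 1.4.2 writes, and was used only as a filter in an alternative. The deposited ES files hold raw counts per gene; 5 special lines were left out. The other deposited values, peak lengths and summits, are positions in bp.

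Members and gene lists were chosen with earlier results of these data known. Tags were summed over each list's peaks in a merged region. They were scaled by TMM and tested with edgeR 4.0.16 (glmQLFit, robust, glmQLFTest, two-sided, Benjamini-Hochberg over 9763 regions; R 4.3.3, limma 3.58.1, DESeq2 1.42.0); SE is the log2 change over the square root of F. The ES model had 4 groups and 14664 genes, with A-MYB against control and Dox+A-MYB against Dox, which share no library. Scripts were tested on simulated data. Scaled tags are tags divided by effective library size, times its mean. Promoter copies were found with BLAST+ 2.17.0. Of RefSeq symbols with a start in a region, 9 of 31 matched the ES files by symbol or older symbol.

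Named regions were the 8 longest, the 8 with the highest scaled tags per kb of merged length in their lowest library, the 3 on either side of 4000 bp, and the list members. No region passed the test, so the 3 with the smallest p in each direction were named after their values were seen, as were genes with copies and the start regions described singly. Alternatives were other scalings, filters, merging rules and assignments, DESeq2, limma on density, a replicate block and leaving out each library. Same-numbered libraries did not deviate together (correlation -0.00642 for ChIP, -0.0271 to 0.0843 for RNA), so they were not treated as pairs.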

Additional observations from a re-analysis of the deposited data

Results flagged for a closer look

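The effect of A-MYB on Eps8l1 differed between ES cells with and without Dox: the log2 change was 3.53 larger with Dox (edgeR interaction test, adjusted p = 0.0245 over all genes tested). The change was -0.22 without Dox and 3.31 with Dox, from 2 to 36 counts per library, and both Dox+A-MYB libraries lay above the other 6. Eps8l1 passed the filter on low counts through those 2 libraries alone, so this difference was largely fixed by the filter and is given as a description.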

How the results depend on the processing

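The number of regions was 1431. It was 360 with peaks of a score of at least 100, 2209 at a length of at least 3000 bp and 882 at 5000 bp, which the stricter or looser limit itself sets; 1377 with an overlap of 500 bp, 1802 with peaks up to 1000 bp apart joined, and 1296 to 1406 without one of the lists. The share of autosomal peak tags was higher in the mutant under all 8 alternatives. The difference was 0.988 to 3.06 percentage points without one library and up to 5.15 at the stricter score. All 8 divide by the tags of all autosomal peaks used, so they do not vary that choice. Within the tags of shared regions the share was lower in both mutant libraries than in either wild-type library. Members with more tags in the mutant numbered 0 under every alternative but DESeq2 (9, of 26 calls over 7870 regions tested). Those with fewer numbered 0 but for DESeq2 (17, of 31 calls) and tags per kb with limma (2, of 3 calls over 9763 regions). The 2 limma calls were 0 again once density was centred on the shared regions, a setting added after seeing the data. The cause was not tested. Leaving out each library gave 0 both ways. With the replicate block 0 members were called either way, and 0 and 2 genes were higher with A-MYB. The sign for chr9:6698339-6702856 turned with centred density (0.0081).

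Of 6 tested ES genes with a start within 1000 bp, 1 was higher and 0 lower without Dox, and 2 were higher and 2 lower with Dox. By gene bodies, where more genes (252) were tested, 59 were higher and 12 lower without Dox, and 83 and 50 with Dox. Over all 14664 genes tested the shares higher and lower were 19.5% and 15.2% without Dox and 26.8% and 28.4% with Dox. Eps8l1 without Dox, at -0.22, turned to 0.38 without control replicate 1 and 0.33 without A-MYB replicate 1; over all libraries left out it ran from -1.29 to 0.38. Of the 6 regions with the smallest p and of Eps8l1, Gm10220 and Gramd1c, no other value turned; other named regions and genes were not recomputed. The members' median log2 change turned from -0.04 to 0.15 with the total of all autosomal peaks. With 2 libraries a group, the power to call single regions is limited, and tags below the caller's threshold were not analysed here.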
